A study of Mus musculus with 167 samples.

Results

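Immature B cells and pre-B cells of wild-type C57BL/6 mice were compared by poly(A) RNA sequencing. The comparison used 7 of the 167 samples in the series, which holds 44 RNA libraries in all. The members were chosen by their labels alone, as RNA libraries of wild-type genotype at either stage, and no measured value entered the choice. The immature B cells had the genotype Igh(+/+), in 2 libraries of a first experiment and 3 libraries of a second. They were set against pre-B cells with the genotype Wapl(+/+), in 2 libraries. An experiment here is a run of library numbers that the series lists together, and the names Igh(+/+) and Wapl(+/+) mark the locus that other libraries of the same run altered. All 7 libraries came from cells sorted directly from bone marrow by flow cytometry, with no culture. The labels give no sort gates and no ages, and they do not say how many mice stand behind a library or whether the libraries of a group came from separate mice. The p-values below therefore measure the spread between libraries, which may be technical. No experiment held both stages, so stage and experiment cannot be told apart. A gene was called only where each immature B experiment differed from pre-B cells in the same direction.

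Pre-B cells carry a rearranged immunoglobulin heavy chain and test it as part of the pre-B cell receptor, in which surrogate light chain proteins stand in for a light chain. They divide under interleukin 7, then leave the cell cycle and cut and join light chain gene segments with the RAG1 and RAG2 recombinase. A cell that makes a working light chain places IgM on its surface and is called an immature B cell. Its receptor is then tested against self antigens before the cell leaves the bone marrow and matures in the spleen.

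The deposited values are TPM, in which the transcripts of each library add up to the same total. They carry no read counts, so the depth of each library is unknown. Within a group, libraries correlated at a Pearson r of 0.989 or more across genes on the log2(TPM + 1) scale. The first and the second immature B experiment correlated at 0.974 to 0.980, and immature B with pre-B libraries at 0.932 or less. Genes are not independent replicates, and these r values describe the libraries only. The labelled stages were checked against their markers. The kappa constant region gene Igkc stood at 27064 and 26913 TPM in the first immature B experiment and 19269, 21587 and 18109 TPM in the second, against 5052 and 6443 TPM in pre-B cells. The CD20 gene Ms4a1 stood at 1677 to 2234 TPM in immature B cells and 84.1 and 153 TPM in pre-B cells. Of the surrogate light chain genes, Igll1 had 35.1 and 42.4 TPM in these pre-B libraries, and 3127 and 3328 TPM in the Wapl(+/+) pro-B libraries of the same experiment. Igkc and Ms4a1 were thus highest in the cells labelled immature B, and Igll1 was far below its pro-B level in the cells labelled pre-B. Vpreb3 was not, at 6324 and 6299 TPM in pre-B cells and 4265 and 4537 TPM in pro-B cells. Of the other immature B markers chosen for this check, Cd40, Cd22 and Tnfrsf13c were higher in immature B cells. Cd93 was lower, and the call of Cd24a as higher turned sign after quantile normalization. Ighm entered no test. Xist and 4 Y-linked genes were above 0 in all 7 libraries. The fold changes below are on the log2(TPM + 1) scale, which understates the change of genes at a few TPM.

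The test covered 12027 genes, those with 2 or more of the 7 libraries at 1 TPM or above. Of these, 1667 were higher in immature B cells with both experiments (13.9%) and 2680 were lower (22.3%). The counts of list members below are to be read beside these shares. A change of at least 1 on the log2 scale with both experiments was found for 558 higher genes (4.64%) and 736 lower genes (6.12%). The test was limma's moderated test in a single fit of the 3 groups, two-sided, with Benjamini-Hochberg adjustment over all genes at 0.05. With the first experiment alone, 16.3% of genes were higher and 39.4% lower; with the second alone, 24.2% were higher and 27.2% lower. Both comparisons use the same 2 pre-B libraries and are not independent of each other. All 5 immature B libraries lay on 1 side of both pre-B libraries in 1666 of the 1667 higher genes and in 2677 of the 2680 lower genes, while 51.0% of all genes tested were separated in this way. Nearly every called gene is thus separated, and where this is stated below it describes the values and adds nothing to the call. The split between higher and lower calls moved with the scaling. Higher genes made up 38.3% of the calls as deposited, 52.3% after scaling by the median of ratios (2239 higher and 2040 lower), 50.6% after quantile normalization (2226 and 2177) and 43.2% with immunoglobulin rows left out (1789 and 2351). The median log2 change over all genes was -0.21 with the first experiment and -0.02 with the second, so small changes are to be read against these shifts. The immature B experiments also differed from each other. The second experiment was higher than the first in 3326 genes (27.7%) and lower in 662 (5.50%), with no labelled difference in cells or genotype. The deposited values of the first experiment use another set of gene rows, 24703 against 24732 in the second experiment and pre-B cells. Whether the shared genes were counted alike is not given. Experiment and gene set therefore cannot be told apart, which also holds for the first experiment against pre-B cells. Immature B cells with the genotype Igh(+/∆890), from 2 libraries of another experiment, the third, served as a further check. With it required as well, 1268 genes were higher and 1921 lower. Among the called genes, 434 of the higher and 692 of the lower differed in size between the experiments as well. A further 256 genes passed against pre-B cells with each experiment but in opposite directions, and these were not called.

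**Figure D1:**
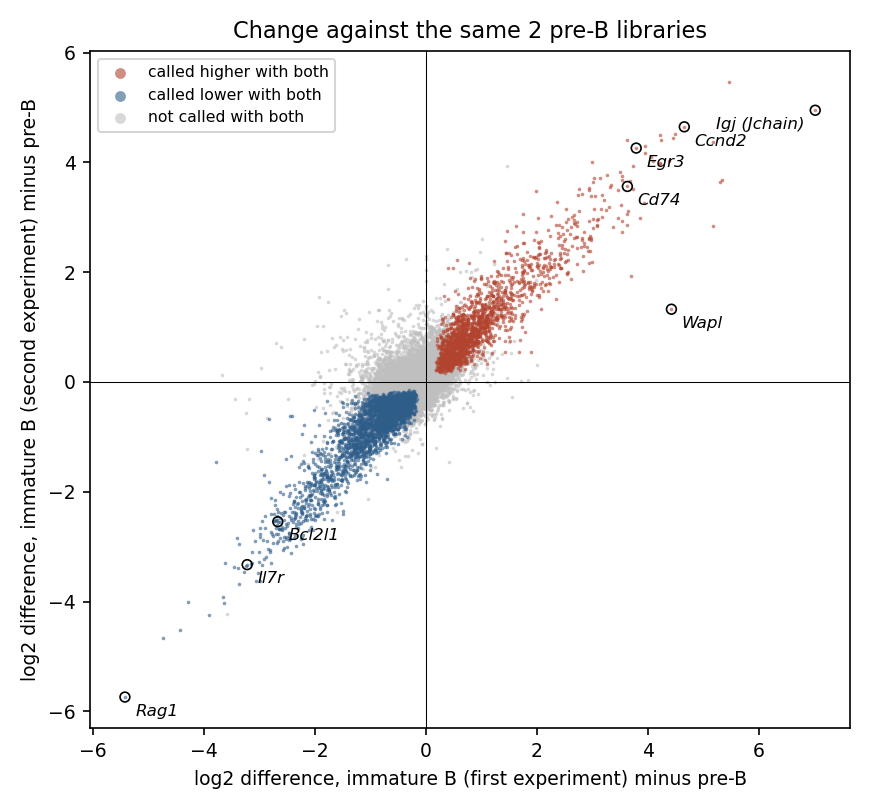
The log2 difference of each gene between immature B cells of the first experiment and pre-B cells (horizontal axis) is set against the same difference for the second experiment (vertical axis). The same 2 pre-B libraries enter both axes. Red points are the 1667 genes called higher, blue points the 2680 called lower, and Wapl lies far from the diagonal, at 4.43 and 1.32.

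Kappa light chain transcripts were higher in immature B cells, and the recombinase genes Rag1 and Rag2 were at a few percent of their pre-B level or less. Rag1, which with Rag2 cuts V, D and J segments, had 13.0 and 11.9 TPM in the first immature B experiment and 16.1, 5.41 and 10.8 TPM in the second, against 514 and 655 TPM in pre-B cells. All 5 immature B libraries lay far below both pre-B libraries, and the log2 changes were -5.43 ± 0.37 and -5.74 ± 0.34 (SE; largest adjusted p 9.2e-06). Rag2 had 1.70 and 1.76 TPM in the first immature B experiment and 1.54, 0.889 and 1.11 TPM in the second, against 36.4 and 43.6 TPM in pre-B cells, with log2 changes of -3.90 ± 0.18 and -4.24 ± 0.17 (largest adjusted p 1.4e-06). Of the 17 genes of the recombinase and end-joining list, 8 were lower and 2 were higher, beside 22.3% and 13.9% of all genes. The median log2 changes were -0.51 and -0.23 against -0.21 and -0.02 over all genes. Xrcc6, the Ku70 subunit of the complex that binds broken DNA ends, was lower as well. It had 74.0 and 65.3 TPM in the first immature B experiment and 80.6, 59.3 and 76.8 TPM in the second, against 592 and 643 TPM in pre-B cells, and the groups were far apart. Its partner Xrcc5, the Ku80 subunit, was at 12.7 to 16.0 TPM in immature B cells and 7.58 and 8.89 TPM in pre-B cells and was higher, with log2 changes of 0.83 and 0.70 (largest adjusted p 0.0015). The RAG cofactors Hmgb2 and Hmgb1, which bend DNA at the cut site, were lower: Hmgb2 had 66.9 to 84.9 TPM in immature B cells and 519 and 502 TPM in pre-B cells, and Hmgb1 had 74.7 to 116 TPM in immature B cells and 264 and 344 TPM in pre-B cells. Hmgb1 has near-identical copies in the genome, so its level is uncertain. Lig4, the ligase that seals the joint, had 17.3 to 30.4 TPM in immature B cells and 56.3 and 65.0 TPM in pre-B cells, and the groups did not overlap. Poll, a repair polymerase known from heavy chain joining, was higher at 14.8 to 21.3 TPM in immature B cells against 6.29 and 7.75 TPM in pre-B cells. Its relative Polm, known from light chain joining, was lower at 164 to 329.9 TPM in immature B cells and 413 and 365 TPM in pre-B cells. The call of Polm did not hold in 8 of 22 alternatives. They include quantile normalization (log2 -0.25, adjusted p 0.099) and leaving out pre-B replicate 1 (log2 -0.26). Dntt, which encodes the polymerase that adds untemplated bases, was not called, at 3.20 to 11.3 TPM in immature B cells and 4.73 and 5.36 TPM in pre-B cells, against 2218 and 2268 TPM in pro-B cells.

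Kappa transcripts rose across most V genes. Of 103 kappa V gene rows, 99 passed the filter on low values; 84 of them were higher in immature B cells and none was lower, with median log2 changes of 2.21 and 1.90. The summed level of all 103 rows was 7345 to 12284 TPM in immature B cells and 1526 to 2179 TPM in pre-B cells. For Igkc the log2 changes were 2.24 ± 0.13 and 1.78 ± 0.12 (largest adjusted p 7.3e-06). V gene rows of a family resemble each other in sequence, and the sources used here do not say how the authors' counting divided such reads. Among the heavy chain V rows, 29 of 102 tested were higher and 2 lower, beside 13.9% and 22.3% of all genes, with medians of 0.50 and 0.33. The sum of all 113 heavy chain V rows was 6100 to 8010 TPM in immature B cells and 4385 to 5773 TPM in pre-B cells. The heavy and lambda constant region genes have no row common to all 7 libraries, so they entered no test. In the second experiment Ighm had 15360, 16253 and 16011 TPM, against 11441 and 12023 TPM in pre-B cells. For Ighd, the IgD constant region, the second experiment had 318, 415 and 325 TPM, against 99.5 and 122 TPM in pre-B cells. Lambda constant region Iglc2 had 2257, 2604 and 2163 TPM in the second experiment, against 749.98 and 786 TPM in pre-B cells. All 3 genes were thus higher in every library of the second experiment than in both pre-B libraries. The lambda V rows of the second experiment overlapped with pre-B cells instead. Iglv1 had 566, 428 and 374 TPM in the second experiment, against 356 and 528 TPM in pre-B cells. Iglv2 had 117, 69.4 and 64.4 TPM in the second experiment, against 70.9 and 122 TPM in pre-B cells. The first experiment lists Ighm, Iglc2 and Iglv1 under other row names. There Ighm had 24999.9 and 25002.2 TPM, Iglc2 1850 and 1968 TPM and Iglv1 719 and 675 TPM. These values lay above both pre-B libraries, Iglv1 included. Whether rows of different name count the same sequence is not given, so they were not tested.

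The surrogate light chain genes Igll1, Vpreb1 and Vpreb2 were already low in pre-B cells. Igll1, the lambda5 protein, had 26.9 and 20.1 TPM in the first immature B experiment and 12.4, 7.71 and 12.5 TPM in the second, against 35.1 and 42.4 TPM in pre-B cells, and its call as lower was lost after scaling by the median of ratios (log2 -0.49, adjusted p 0.087). The call of Igll1 did not hold in 8 of 22 alternatives, which include leaving out replicate 2 of the first experiment or pre-B replicate 2. Vpreb3, a gene named for its likeness to the surrogate chains, stayed abundant at 4003 to 4621 TPM in immature B cells and 6324 and 6299 TPM in pre-B cells. It was lower with both experiments (log2 -0.54 and -0.58), a call also lost under that scaling (log2 -0.32, adjusted p 0.098). Vpreb1 had 5.07 to 18.3 TPM in immature B cells and 20.1 and 23.6 TPM in pre-B cells, with an adjusted p of 0.11 with the first experiment and 0.00028 with the second, so it was not called. Vpreb2 had 0 to 2.55 TPM in immature B cells and 0.255 and 1.42 TPM in pre-B cells and was not called.

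The genes that present antigen on MHC class II changed together. MHC class II proteins carry peptides from the endosome to the cell surface for T helper cells, and CIITA is the coactivator that turns their genes on. All 10 members of the list passed the filter and all 10 were higher in immature B cells, with median log2 changes of 2.63 and 2.66. Their summed level was 15795 to 22490 TPM in immature B cells and 1937 to 1993 TPM in pre-B cells. Cd74, the invariant chain that guides class II molecules and fills their groove, had 14219 and 14775 TPM in the first immature B experiment and 11854, 16635 and 13287 TPM in the second, against 1178 and 1156 TPM in pre-B cells. The lowest immature B library was far above both pre-B libraries, and the log2 changes were 3.63 ± 0.14 and 3.56 ± 0.13 (largest adjusted p 7.1e-07). H2-DMb2, a chain of the DM complex that exchanges the invariant chain remnant for peptide, had 328 and 367 TPM in the first immature B experiment and 356, 463 and 363 TPM in the second, against 17.0 and 17.9 TPM in pre-B cells. The log2 changes of H2-DMb2 were 4.23 ± 0.13 and 4.41 ± 0.12 (largest adjusted p 3.6e-07). The other DM chains differed less, with H2-DMa at 274 to 347 TPM in immature B cells and 38.9 and 36.4 TPM in pre-B cells and H2-DMb1 at 32.1 to 81.7 TPM in immature B cells and 11.4 and 8.80 TPM in pre-B cells. The classical chains followed the same direction. H2-Eb1 had 737 and 797 TPM in the first immature B experiment and 548, 924 and 567 TPM in the second, against 54.5 and 59.5 TPM in pre-B cells. H2-Aa had 1241 and 1442 TPM in the first immature B experiment and 999, 1576 and 953 TPM in the second, against 207 and 172 TPM in pre-B cells. H2-Ab1 had 1288 to 1984 TPM in immature B cells and 311 and 307 TPM in pre-B cells. No immature B library reached down to the pre-B level for any of these chains. The DO chains, which restrain DM, were higher too: H2-Oa had log2 changes of 2.104 and 2.09 and H2-Ob of 0.59 and 0.68 (largest adjusted p 0.0015). Ciita itself had 41.9 and 45.2 TPM in the first immature B experiment and 60.0, 69.4 and 56.8 TPM in the second, against 18.6 and 20.1 TPM in pre-B cells. Its log2 changes of 1.13 ± 0.11 and 1.63 ± 0.10 were below those of the other members except H2-Ob. Ifi30 encodes a lysosomal enzyme that reduces disulfide bonds of antigens for class II loading. It had 7030.5 and 7215 TPM in the first immature B experiment and 7206, 6723 and 6456 TPM in the second, against 415 and 419 TPM in pre-B cells, and the groups were far apart (log2 4.09 and 4.02). Cd83, whose protein keeps class II molecules at the surface, had 62.0 to 86.7 TPM in immature B cells and 3.57 and 3.62 TPM in pre-B cells. In contrast H2-Ea-ps, the class II pseudogene of this strain, was listed at 0 in 4 immature B libraries and at 0.191 TPM in the other, against 39.03 and 16.9 TPM in pre-B cells.

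The class II promoters are printed because the genes moved together. RefSeq promoter entries (GRCm38.p6) were found for 7 of the 10 genes: H2-Aa, H2-DMa, H2-DMb1, H2-DMb2, H2-Eb1, H2-Oa and H2-Ob. In the 250 bases before the transcription start, TGATTGG, the Y box of class II promoters, occurred in 6 of the 7, all on the strand of the gene and 45 to 92 bases before the start. The 8 letters GATGATGC, part of the X box, occurred in 3 of the 7. Over all 32851 promoters of the table, 7.23% held TGATTGG and 0.575% held GATGATGC on either strand in the same window. The motifs do not overlap each other, and both were chosen after the sequences were seen. The match describes these letters only. The windows of 120 bases run 5′ to 3′ on the strand of the gene, with the motifs in capitals. H2-DMb2 lies at chr17:34145129-34145248 and H2-DMb1 at chr17:34153071-34153190, both on the plus strand. H2-Eb1 lies at chr17:34305747-34305866 on the plus strand and H2-Aa at chr17:34287824-34287943 on the minus strand. H2-Oa lies at chr17:34092259-34092378 and H2-Ob at chr17:34238785-34238904, both on the plus strand.
H2-DMb2: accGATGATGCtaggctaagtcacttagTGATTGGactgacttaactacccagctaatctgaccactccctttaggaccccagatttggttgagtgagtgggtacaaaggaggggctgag
H2-DMb1: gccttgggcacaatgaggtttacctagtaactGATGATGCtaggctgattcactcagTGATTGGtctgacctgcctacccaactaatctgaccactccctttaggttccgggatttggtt
H2-Eb1: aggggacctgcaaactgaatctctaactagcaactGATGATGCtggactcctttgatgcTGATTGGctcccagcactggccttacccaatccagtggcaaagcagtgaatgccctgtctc
H2-Aa: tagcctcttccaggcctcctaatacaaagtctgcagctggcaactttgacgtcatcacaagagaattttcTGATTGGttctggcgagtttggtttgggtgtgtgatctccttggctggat
H2-Oa: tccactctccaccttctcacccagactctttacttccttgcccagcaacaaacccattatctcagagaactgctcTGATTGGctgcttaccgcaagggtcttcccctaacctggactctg
H2-Ob: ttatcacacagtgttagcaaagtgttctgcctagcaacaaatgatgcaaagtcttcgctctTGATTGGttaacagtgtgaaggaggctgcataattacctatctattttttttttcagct
H2-DMb2, H2-DMb1 and H2-Eb1 hold both motifs, and their log2 changes were 4.23 and 4.41, 1.76 and 2.73, and 3.73 and 3.51. H2-Aa, H2-Oa and H2-Ob hold TGATTGG alone, and their log2 changes were 2.82 and 2.59, 2.104 and 2.09, and 0.59 and 0.68. H2-DMa holds neither, and its log2 changes were 3.10 and 2.96, above those of the genes with TGATTGG alone. These values are given beside the sequences with no test.

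Genes of B cell receptor (BCR) signalling moved in both directions. Of 25 tested, 10 were higher and 5 lower, beside 13.9% and 22.3% of all genes, with medians of 0.03 and 0.33. Bank1, a scaffold for the receptor-proximal kinases, had 158 and 163 TPM in the first immature B experiment and 187, 203 and 178 TPM in the second, against 13.1 and 17.7 TPM in pre-B cells. Every immature B library was several times above both pre-B libraries, with log2 changes of 3.31 and 3.55 for Bank1. Rasgrp3, an activator of Ras, had log2 changes of 1.75 and 2.26 (largest adjusted p 1.3e-05). The kinase Syk and the adaptor Blnk, which are also used by the pre-B cell receptor, were lower. Syk had 739 and 735 TPM in the first immature B experiment and 1038, 989 and 1064 TPM in the second, against 1668 and 1728 TPM in pre-B cells. Blnk had 365 to 478 TPM in immature B cells and 821 and 732 TPM in pre-B cells, and the groups did not overlap for either gene (log2 -1.20 and -0.72 for Syk, -1.07 and -0.75 for Blnk). Pik3cd, the phosphoinositide 3-kinase subunit, was lower with log2 changes of -1.03 and -0.51. The receptor's own signalling chains were abundant at both stages. Cd79a had 9837 to 12235 TPM in immature B cells and 7277 and 6718 TPM in pre-B cells and was called higher, but its sign turned after quantile normalization (log2 -0.07, adjusted p 0.41). Cd79b, at 5621 to 6522 TPM in immature B cells and 4690.3 and 5103 TPM in pre-B cells, turned as well (log2 -0.01, adjusted p 0.93), and its call was lost on leaving out replicate 1 of the first experiment, replicate 2 or 3 of the second, or pre-B replicate 1 (adjusted p 0.051 to 0.13).

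Inhibitory receptors and phosphatases linked to them were mostly higher in immature B cells. Of 11 tested members, 8 were higher and 1 was lower, beside 13.9% and 22.3% of all genes, with medians of 1.64 and 2.17. The higher members include the phosphatases Ptpn6 and Ptpn22, which are not receptors. Btla, a brake on lymphocytes that binds HVEM, had 129 and 139 TPM in the first immature B experiment and 204, 165 and 145 TPM in the second, against 14.0 and 16.6 TPM in pre-B cells (log2 3.06 and 3.39). Ptpn6, the phosphatase SHP-1 that such receptors recruit, had 1552 and 1607 TPM in the first immature B experiment and 2232, 2375 and 2347 TPM in the second, against 423 and 474 TPM in pre-B cells (log2 1.82 and 2.37). Cd22, a sialic acid receptor that dampens BCR signals, had 347 to 586 TPM in immature B cells and 109 and 118 TPM in pre-B cells. No library of the 2 stages overlapped in these 3 genes. Cd5, a T cell and B-1 cell surface protein that restrains receptor signals, had 7.87 to 9.74 TPM in immature B cells and 0.741 and 0.822 TPM in pre-B cells. Cd72 and the Fc receptor Fcgr2b rose by less, with log2 changes of 0.76 and 1.15 and of 0.52 and 0.88. Pecam1, an adhesion molecule with an inhibitory tail, was the member that fell, at 129.9 to 173 TPM in immature B cells and 206 and 237 TPM in pre-B cells. Lair1 did not pass the filter.

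The maturation list held more higher than lower genes. Of 15 maturation genes tested, 10 were higher and 4 lower, beside 13.9% and 22.3% of all genes, with medians of 0.51 and 0.78. After scaling by the median of ratios 2 were lower. Fcer2a, the low-affinity IgE receptor CD23, had 103 and 123 TPM in the first immature B experiment and 31.1, 85.1 and 96.5 TPM in the second, against 2.09 and 2.16 TPM in pre-B cells. Replicate 1 of the second experiment was below the other immature B libraries, yet still far above pre-B cells (log2 5.18 and 4.37). Ms4a1 had log2 changes of 4.22 ± 0.23 and 3.97 ± 0.21 (largest adjusted p 2.7e-06). Cr2, the complement receptor CD21, had 10.1 to 15.3 TPM in immature B cells and 0.0882 and 0.313 TPM in pre-B cells. Cd40, the receptor for T cell help, had 186 and 199 TPM in the first immature B experiment and 225, 237 and 202 TPM in the second, against 42.3 and 41.3 TPM in pre-B cells. Tnfrsf13c, the BAFF receptor that keeps transitional and mature B cells alive, had 1065 to 1359 TPM in immature B cells and 377 and 372 TPM in pre-B cells. Cd93 and Cd38 were lower. Cd93, a marker of B cell progenitors that is lost with maturation, had 98.4 and 87.0 TPM in the first immature B experiment and 134, 80.3 and 100.3 TPM in the second, against 245 and 275 TPM in pre-B cells, and Cd38 had 70.5 to 90.4 TPM in immature B cells and 161 and 204 TPM in pre-B cells. In both genes all immature B libraries were below both pre-B libraries. Cd24a was abundant at both stages, 2684 to 3209 TPM in immature B cells and 2318 and 2265 TPM in pre-B cells. Its call as higher turned sign after quantile normalization (log2 -0.02, adjusted p 0.85). Fcer2a and Cr2 also mark mature recirculating B cells, which the bone marrow holds. Of 9 mature B cell markers tested, 6 were higher and 1 lower, beside 13.9% and 22.3% of all genes. Their summed level was 2495 to 3075 TPM in immature B cells and 792 to 842 TPM in pre-B cells, and none was at 0. Ccr7, a homing receptor of mature lymphocytes, had 127 to 146 TPM in immature B cells and 143 and 159 TPM in pre-B cells and was not called. The part of mature B cells in these results was not tested. In bulk RNA, more cells of a type and more RNA per cell cannot be told apart.

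Genes for homing changed in number and kind. Of 18 chemokine receptor, sphingosine phosphate receptor and integrin genes tested, 10 were higher and 2 lower, beside 13.9% and 22.3% of all genes. Their medians were 0.69 and 0.73. Cxcr5, the receptor that guides B cells to follicles, had 151 and 141 TPM in the first immature B experiment and 126, 174 and 138 TPM in the second, against 5.45 and 5.99 TPM in pre-B cells. The stages were far apart in every library, and the log2 changes were 4.46 ± 0.14 and 4.44 ± 0.13 (largest adjusted p 4.5e-07). Cxcr4, the receptor that holds progenitors in the marrow through CXCL12, had 236 and 186 TPM in the first immature B experiment and 254, 154 and 186 TPM in the second, against 747 and 830.1 TPM in pre-B cells. It was lower with log2 changes of -1.91 ± 0.21 and -2.02 ± 0.19 (largest adjusted p 0.00012). S1pr1, which draws lymphocytes towards blood, had 104 to 129 TPM in immature B cells and 52.5 and 65.2 TPM in pre-B cells, and S1pr3 had 9.75 to 18.4 TPM in immature B cells and 2.05 and 3.44 TPM in pre-B cells. Both were higher, S1pr1 with log2 changes of 0.87 and 1.07 and S1pr3 with 1.60 and 2.07. Ccr6, the receptor for CCL20, was listed at 0 in both pre-B libraries and at 4.13 to 6.27 TPM in immature B cells. S1pr4 was lower at 139.6 to 160.3 TPM in immature B cells and 222 and 213 TPM in pre-B cells, a call lost when the third immature B experiment was required too (log2 -0.25, adjusted p 0.055).

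Cytokine receptor genes showed a loss of the interleukin 7 receptor beside gains in others. Il7r, the specific chain of that receptor, had 21.0 and 15.2 TPM in the first immature B experiment and 26.9, 10.5 and 15.9 TPM in the second, against 169.8 and 181 TPM in pre-B cells. The groups were far apart, with log2 changes of -3.22 ± 0.34 and -3.33 ± 0.31 (largest adjusted p 9.9e-05). Of 14 genes of interleukin 7 signalling, 7 were lower and 2 higher, beside 22.3% and 13.9% of all genes, with medians of -0.37 and -0.25. After scaling by the median of ratios 6 were lower and 4 higher. Socs1, a feedback inhibitor that cytokine signals induce, had 21.0 and 14.4 TPM in the first immature B experiment and 27.9, 24.0 and 20.2 TPM in the second, against 161 and 127 TPM in pre-B cells (log2 -2.96 and -2.53). The kinases Pim1, Pim2 and Akt1, which act on growth and survival, were lower. Pim1 had 152 to 180.2 TPM in immature B cells and 388 and 362 TPM in pre-B cells, Pim2 had log2 changes of -1.18 and -0.93 and Akt1 of -1.07 and -0.84. The shared gamma chain Il2rg went the other way at 289 to 361 TPM in immature B cells and 129 and 129 TPM in pre-B cells. Of 16 cytokine and tumour necrosis factor family receptors tested, 7 were higher and 2 lower, beside 13.9% and 22.3% of all genes. Their medians were 0.56 and 0.69. Il21r had 218 to 287 TPM in immature B cells and 77.7 and 78.4 TPM in pre-B cells, Il4ra had 138 to 184 TPM in immature B cells and 68.1 and 65.2 TPM in pre-B cells and Il5ra had 7.87 to 12.2 TPM in immature B cells and 0.894 and 2.09 TPM in pre-B cells. For these 3 receptors the lowest immature B library was above both pre-B libraries.

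**Figure D2:**
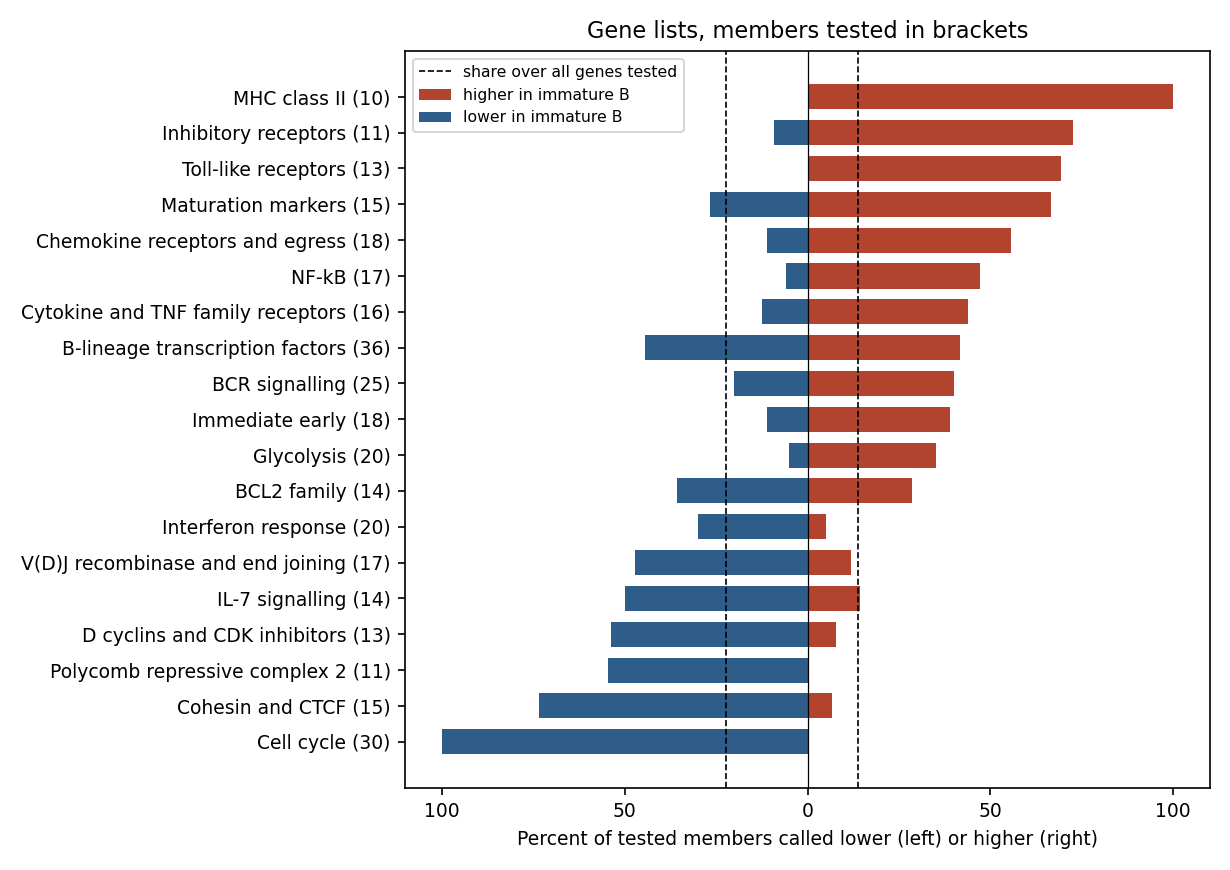
For each gene list (vertical axis, tested members in brackets) bars give the percent of tested members called lower (blue, left) or higher (red, right) in immature B cells with both experiments. Dashed lines mark the share over all genes tested, 22.3% lower and 13.9% higher. All 10 MHC class II genes were higher and all 30 cell cycle genes were lower.

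Innate receptor genes were mostly higher, and none was called lower. Of 13 genes of the Toll-like receptor list, 9 were higher, beside 13.9% of all genes, with medians of 0.78 and 0.87. Tlr1, a partner of TLR2 for lipopeptides, had 33.9 and 30.9 TPM in the first immature B experiment and 38.4, 40.1 and 35.2 TPM in the second, against 1.76 and 2.03 TPM in pre-B cells (log2 3.53 and 3.75). Tlr9, the receptor for unmethylated DNA, had 389 and 372 TPM in the first immature B experiment and 416, 404 and 420.4 TPM in the second, against 96.1 and 103 TPM in pre-B cells. Cd180, a relative of TLR4 on B cells, had 182 to 223 TPM in immature B cells and 34.1 and 38.2 TPM in pre-B cells. In these 3 genes the stages were separated by more than the spread within either. Tlr4, the receptor for lipopolysaccharide, was low at both stages but higher in immature B cells, at 3.00 to 4.13 TPM in immature B cells and 0.513 and 0.884 TPM in pre-B cells. The adaptor Myd88 had 71.1 to 85.1 TPM in immature B cells and 78.3 and 74.7 TPM in pre-B cells and was not called.

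Genes that receptor signals induce were partly higher. Of 18 immediate early genes tested, 7 were higher and 2 lower, beside 13.9% and 22.3% of all genes, with medians of -0.087 and -0.0046. The EGR family of zinc finger factors held the largest changes of the list. Egr3 had 53.2 and 64.5 TPM in the first immature B experiment and 78.4, 90.3 and 76.1 TPM in the second, against 3.09 and 3.52 TPM in pre-B cells (log2 3.79 ± 0.13 and 4.26 ± 0.12). Egr1 had 133 and 142 TPM in the first immature B experiment and 192, 129 and 167 TPM in the second, against 16.1 and 12.7 TPM in pre-B cells (log2 3.18 ± 0.18 and 3.402 ± 0.16). In both genes no library of 1 stage reached the other stage. Nr4a1, whose level follows antigen receptor signals in B cells, had 16.0 to 24.9 TPM in immature B cells and 6.68 and 5.54 TPM in pre-B cells (log2 1.27 and 1.83). Fos, a stress and growth response gene, varied within each group, at 17.8 to 113 TPM in immature B cells and 68.6 and 43.7 TPM in pre-B cells, and was not called. Jun was lower at 37.6 to 87.0 TPM in immature B cells and 204 and 134 TPM in pre-B cells (log2 -1.87 and -1.58). Of 17 NF-kB genes, 8 were higher and 1 lower, beside 13.9% and 22.3% of all genes, with medians of 0.19 and 0.56. Nfkbid, a nuclear regulator of NF-kB, had 407 and 435 TPM in the first immature B experiment and 479.6, 469 and 400.1 TPM in the second, against 85.2 and 73.6 TPM in pre-B cells, and Bcl3 had 215 to 296 TPM in immature B cells and 85.2 and 64.3 TPM in pre-B cells. Rel, the c-Rel subunit, was higher with log2 changes of 0.62 and 1.12, while the inhibitor Nfkbia was lower at 366 to 437 TPM in immature B cells and 731 and 679 TPM in pre-B cells. The subunits Rela, at 155 to 193 TPM in immature B cells and 167 and 153 TPM in pre-B cells, and Relb, at 110.4 to 132 TPM in immature B cells and 125 and 94.8 TPM in pre-B cells, were not called.

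Transcription factors of the B lineage moved in both directions in nearly equal number. Of 36 tested, 15 were higher and 16 lower, beside 13.9% and 22.3% of all genes, with medians of -0.10 and 0.01. Myc, the growth regulator, had 46.9 and 42.2 TPM in the first immature B experiment and 48.2, 56.6 and 48.2 TPM in the second, against 5.16 and 7.04 TPM in pre-B cells. All immature B libraries were above both pre-B libraries, and the log2 changes were 2.69 ± 0.15 and 2.88 ± 0.13 (largest adjusted p 2.8e-06). Its level in the pro-B libraries was 164 and 156 TPM. Pou2f2, the Oct2 factor of mature B cells, had 407 and 462 TPM in the first immature B experiment and 591, 704 and 705 TPM in the second, against 165 and 146 TPM in pre-B cells (log2 1.48 and 2.09). Mef2c, which acts downstream of receptor signals, had 86.6 to 107 TPM in immature B cells and 30.3 and 31.3 TPM in pre-B cells. Bcl11a had 132 to 179 TPM in immature B cells and 51.1 and 50.9 TPM in pre-B cells and Irf8 696 to 914 TPM in immature B cells and 333 and 344 TPM in pre-B cells. None of these factors overlapped between the stages, a separation found in 51.0% of all genes tested. The lower factors included several of early progenitors. Sox4, needed for early B cell development, had 148 and 139 TPM in the first immature B experiment and 133, 117 and 148 TPM in the second, against 755 and 725 TPM in pre-B cells (log2 -2.36 and -2.48). Myb, a regulator of progenitor growth, had 87.0 and 83.5 TPM in the first immature B experiment and 144, 94.3 and 127 TPM in the second, against 553 and 584 TPM in pre-B cells (log2 -2.72 and -2.23). Irf4, which with Irf8 governs the change from the pre-B receptor to light chain rearrangement, had 122 and 98.9 TPM in the first immature B experiment and 142, 104 and 109.7 TPM in the second, against 377 and 384 TPM in pre-B cells, and Bach2 had 105 to 178 TPM in immature B cells and 398 and 365 TPM in pre-B cells. Tcf3, the E2A factor, had 726 to 965 TPM in immature B cells and 1842 and 1529.7 TPM in pre-B cells and Ebf1 208 to 288 TPM in immature B cells and 410.2 and 409 TPM in pre-B cells. The stages did not overlap in any of these 6 factors. Pax5, the factor that commits cells to the B lineage, was at 647 to 891 TPM in immature B cells and 575 and 546 TPM in pre-B cells. Its log2 changes were 0.26 and 0.65, and the call as higher was lost without replicate 2 of the first experiment (adjusted p 0.095) and without pre-B replicate 2 (adjusted p 0.053).

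The cell cycle list was lower throughout. All 30 genes passed the filter and all 30 were lower in immature B cells, with medians of -2.12 and -2.28 against -0.21 and -0.02 over all genes. Their summed level was 1657 to 1887 TPM in immature B cells and 5325 to 5508 TPM in pre-B cells. Genes of mitosis were among the largest changes. Ccnb2, a mitotic cyclin, had 55.3 and 50.8 TPM in the first immature B experiment and 38.8, 39.5 and 35.0 TPM in the second, against 329 and 313 TPM in pre-B cells (log2 -2.58 ± 0.09 and -3.06 ± 0.08, largest adjusted p 4.5e-07). Plk1, a mitotic kinase, had 26.6 and 28.9 TPM in the first immature B experiment and 24.8, 21.2 and 24.7 TPM in the second, against 187 and 174 TPM in pre-B cells (log2 -2.66 and -2.89). Mki67, which encodes the Ki-67 proliferation antigen, had 24.0 and 29.2 TPM in the first immature B experiment and 38.4, 35.7 and 31.3 TPM in the second, against 167 and 214 TPM in pre-B cells. In these 3 genes every immature B library was far below both pre-B libraries. Pcna, the clamp of DNA polymerase, had 178 to 217 TPM in immature B cells and 429.6 and 485 TPM in pre-B cells, and the helicase subunit Mcm2 had 84.9 to 97.0 TPM in immature B cells and 154 and 159.8 TPM in pre-B cells. The pro-B cells listed in the same experiment as the pre-B cells had 993 and 998 TPM of Pcna and 392 and 386 TPM of Mcm2. E2f1, a driver of entry into S phase, was lower at 32.0 to 42.5 TPM in immature B cells and 50.7 and 55.6 TPM in pre-B cells. With the third immature B experiment required as well, 24 of the 30 genes were still called lower, and Mcm2 (log2 -0.15, adjusted p 0.17) and E2f1 (log2 -0.09, adjusted p 0.68) were among those no longer called.

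The D-type cyclins Ccnd2 and Ccnd3 changed in opposite directions. These cyclins activate CDK4 and CDK6 and link outside signals to the cell cycle. Ccnd2 had 262 and 274 TPM in the first immature B experiment and 286, 289.8 and 225 TPM in the second, against 8.65 and 10.7 TPM in pre-B cells, and the log2 changes were 4.66 ± 0.14 and 4.65 ± 0.12 (largest adjusted p 3.6e-07). Ccnd3, the D cyclin that pre-B cells need to expand, had 334 and 294 TPM in the first immature B experiment and 312, 277 and 354 TPM in the second, against 903 and 854 TPM in pre-B cells, and the log2 changes were -1.48 ± 0.11 and -1.49 ± 0.10 (largest adjusted p 1.7e-05). The stages did not overlap for either cyclin. Ccnd1 had 2.84 to 3.87 TPM in immature B cells and 4.93 and 3.87 TPM in pre-B cells and was not called. Several CDK inhibitors were lower as well. Cdkn2c, the p18 inhibitor, had 24.5 to 40.4 TPM in immature B cells and 111 and 102 TPM in pre-B cells, and Cdkn1b, the p27 inhibitor, had 162 to 187 TPM in immature B cells and 318 and 288 TPM in pre-B cells. Cdkn1a, the p21 inhibitor, had 8.11 to 11.2 TPM in immature B cells and 24.9 and 28.9 TPM in pre-B cells, a call lost when the third immature B experiment was required (log2 -0.47, adjusted p 0.085). Of the 13 tested members of this list, 7 were lower, and Ccnd2 was the 1 higher, beside 22.3% and 13.9% of all genes. The medians were -0.56 and -0.62.

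**Figure D3:**
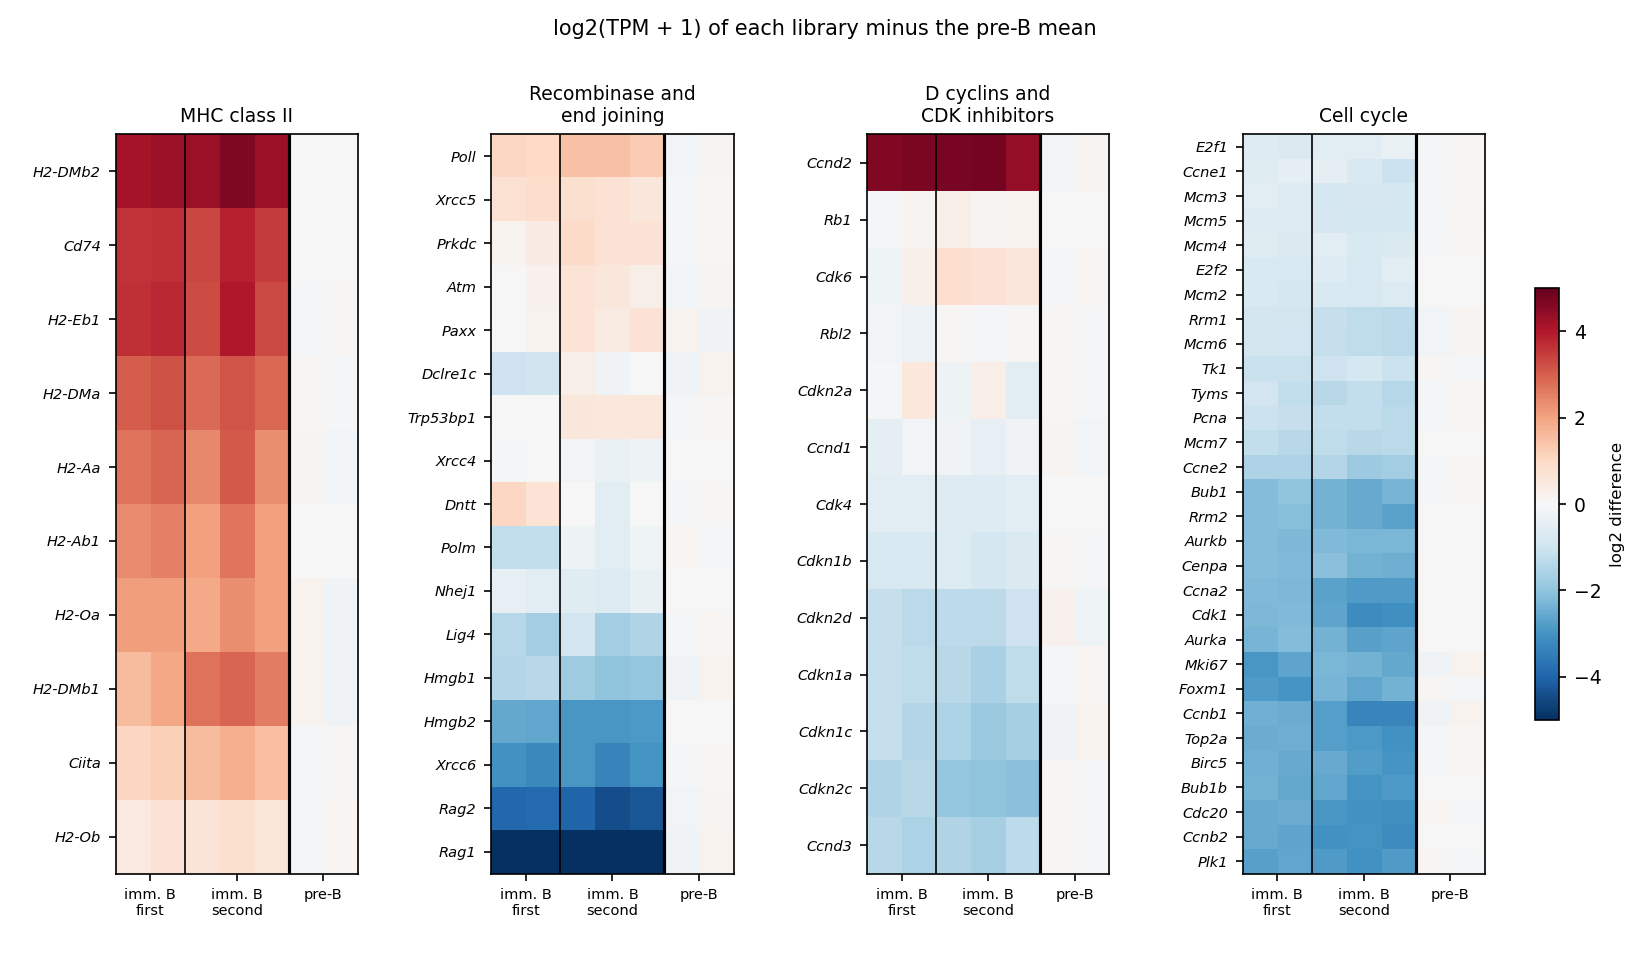
Each cell gives log2(TPM + 1) of a gene (rows) in a library (columns) minus the mean of the 2 pre-B libraries, red for higher and blue for lower, for 4 gene lists. Columns are the first immature B experiment, the second and pre-B; the colour scale ends at 5, which Rag1 exceeds at -5.43 and -5.74. Ccnd2 is red in every immature B library, and all cell cycle genes are blue.

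Survival genes of the BCL2 family moved in opposite directions. Bcl2l1, which encodes the survival protein Bcl-xL, had 73.8 and 71.0 TPM in the first immature B experiment and 91.5, 68.1 and 79.5 TPM in the second, against 483 and 451 TPM in pre-B cells. It was lower with log2 changes of -2.67 ± 0.12 and -2.54 ± 0.11 (largest adjusted p 1.4e-06). Bcl2 had 9.65 and 9.65 TPM in the first immature B experiment and 12.0, 13.4 and 10.3 TPM in the second, against 0.708 and 0.628 TPM in pre-B cells and was higher, with log2 changes of 2.68 ± 0.15 and 2.94 ± 0.14 (largest adjusted p 3.8e-06). The stages did not overlap for either gene. Mcl1, another survival gene, had 784 and 755 TPM in the first immature B experiment and 849.7, 737 and 754 TPM in the second, against 298 and 318 TPM in pre-B cells. Of these 3 survival genes, Mcl1 had the highest TPM in immature B cells and Bcl2l1 in pre-B cells. Among the genes that promote cell death, Bid was higher at 44.3 to 57.2 TPM in immature B cells and 21.1 and 19.7 TPM in pre-B cells. Bcl2l11, the Bim protein needed for the deletion of self-reactive B cells, was lower at 12.4 to 15.9 TPM in immature B cells and 21.6 and 24.9 TPM in pre-B cells, and Bmf was lower at 112 to 132 TPM in immature B cells and 210.1 and 185 TPM in pre-B cells. Of 14 members tested, 4 were higher and 5 lower, beside 13.9% and 22.3% of all genes, with medians of -0.10 and 0.03. After scaling by the median of ratios 3 were lower.

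Cohesin genes were mostly lower, and Wapl stood apart. Cohesin is the ring that extrudes chromatin loops, CTCF halts it at its sites, and WAPL releases it from DNA; at the Igh locus, long loops bring distant V genes to the recombination centre. Of 15 genes of the list, 11 were lower and Wapl was the 1 higher, beside 22.3% and 13.9% of all genes. The medians were -0.80 and -0.61. Rad21, the ring's closing subunit, had 131 and 129 TPM in the first immature B experiment and 144, 134 and 128 TPM in the second, against 360.0 and 349 TPM in pre-B cells (log2 -1.44 ± 0.07 and -1.38 ± 0.07). Ctcf had 126 and 128 TPM in the first immature B experiment and 155, 146 and 153 TPM in the second, against 248 and 245 TPM in pre-B cells (log2 -0.95 and -0.70). Nipbl, the loader of cohesin, had 29.6 to 56.9 TPM in immature B cells and 76.3 and 85.4 TPM in pre-B cells. The stages did not overlap in these 3 genes. Among the lower members, those that act with DNA replication changed most, Cdca5 at 7.31 to 15.2 TPM in immature B cells and 55.0 and 59.9 TPM in pre-B cells and Esco2 at 4.26 to 6.72 TPM in immature B cells and 27.3 and 27.4 TPM in pre-B cells. Cdca5 encodes sororin, which protects cohesin on replicated DNA, and Esco2 acetylates the ring in S phase. Hdac8, which removes that acetyl mark, had 19.0 to 28.0 TPM in immature B cells and 74.5 and 91.3 TPM in pre-B cells.

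Wapl (listed as Wapal) differed between the immature B experiments by more than between the second of them and pre-B cells. It had 163 and 405 TPM in the first immature B experiment and 33.1, 26.8 and 27.5 TPM in the second, against 9.32 and 12.9 TPM in pre-B cells. Both immature B experiments lay above pre-B cells, and the first lay above the second by several fold. The log2 changes were 4.43 with the first (adjusted p 2.2e-05) and 1.32 with the second (adjusted p 0.0091), and the second minus the first was -3.10 (adjusted p 0.00032). In other libraries of the first experiment, from Igh(890-inv/+) immature B cells, Wapl was at 27.3 and 40.8 TPM. The third experiment, with the genotype Igh(+/∆890), had 20.2 and 14.99 TPM, and the pro-B libraries of the pre-B experiment had 10.4 and 10.999 TPM. The call was lost when the third experiment was required (log2 0.62, adjusted p 0.20), with the 5 immature B libraries as a single group (adjusted p 0.092), with a robust prior (adjusted p 0.051) and without pre-B replicate 1 (adjusted p 0.059).

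**Figure D4:**
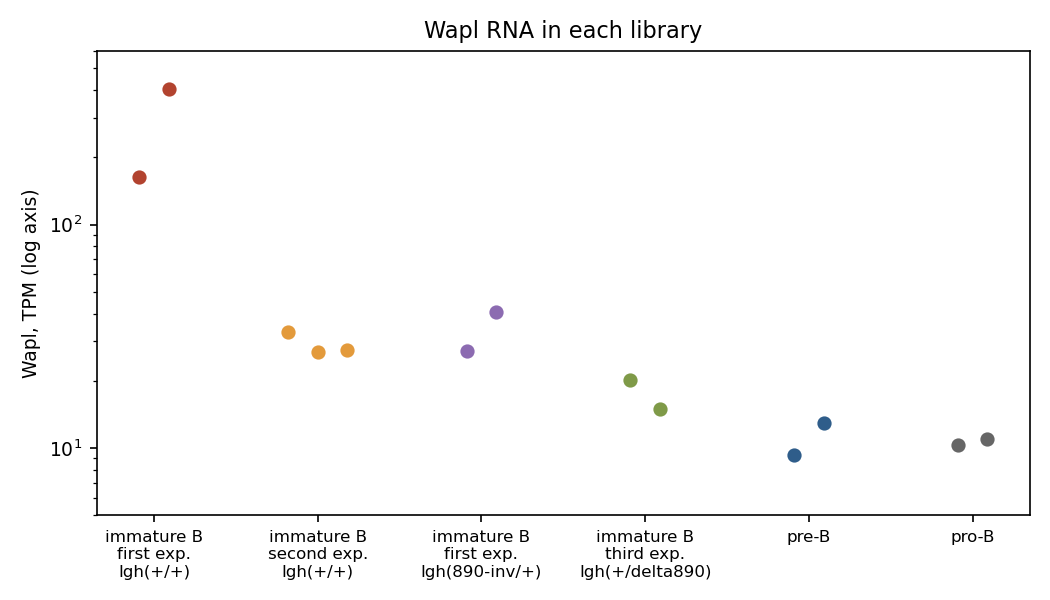
Wapl RNA in TPM on a log axis, 1 point per library, for the immature B experiments, pre-B cells and pro-B cells. The first experiment's Igh(+/+) libraries sit at 163 and 405 TPM, while its Igh(890-inv/+) libraries sit at 27.3 and 40.8 TPM and pre-B cells at 9.32 and 12.9 TPM.

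Polycomb repressive complex 2, which methylates histone H3 at silent genes, was lower in part. Of 11 genes, 6 were lower and none higher, beside 22.3% and 13.9% of all genes, with medians of -0.24 and -0.45. After scaling by the median of ratios 5 were lower and 3 higher. Ezh2, the methyltransferase of dividing cells, had 37.5 and 37.8 TPM in the first immature B experiment and 40.0, 32.1 and 32.6 TPM in the second, against 206 and 232 TPM in pre-B cells (log2 -2.51 ± 0.12 and -2.62 ± 0.11, largest adjusted p 1.4e-06). All immature B libraries were far below both pre-B libraries. Suz12 had 48.7 to 56.7 TPM in immature B cells and 79.5 and 80.7 TPM in pre-B cells. Its partner Eed had 54.6 to 59.8 TPM in immature B cells and 69.5 and 68.7 TPM in pre-B cells (log2 -0.24 and -0.28). The call of Eed was lost after scaling by the median of ratios (log2 -0.02, adjusted p 0.85) and on leaving out either library of the first experiment or of pre-B cells (adjusted p 0.068 to 0.12). Ezh1, the form found in resting cells, had 33.9 to 50.6 TPM in immature B cells and 34.2 and 34.7 TPM in pre-B cells and was not called.

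Metabolic genes changed in a few steps. Of 20 glycolysis genes tested, 7 were higher and 1 lower, beside 13.9% and 22.3% of all genes, with medians of 0.31 and 0.31. Slc16a1, a lactate transporter, was the lower gene, at 31.3 and 26.9 TPM in the first immature B experiment and 25.6, 19.2 and 19.2 TPM in the second, against 228 and 262 TPM in pre-B cells (log2 -3.03 and -3.47). The groups were far apart in Slc16a1. The glucose transporter Slc2a1 had 49.4 to 65.2 TPM in immature B cells and 28.4 and 26.6 TPM in pre-B cells, and the enzyme gene Aldoa 591 to 697 TPM in immature B cells and 379 and 381 TPM in pre-B cells. Gapdh was listed at only 3.71 to 5.66 TPM in immature B cells and 2.13 and 3.16 TPM in pre-B cells, and Eno1 at 1.10 to 3.61 TPM in immature B cells and 0.740 and 1.78 TPM in pre-B cells. Both have near-identical copies elsewhere in the genome, so their values are uncertain. Of 20 interferon response genes tested, 6 were lower and 1 higher, beside 22.3% and 13.9% of all genes, with medians of -0.58 and -0.23. Isg15, an interferon-induced ubiquitin-like protein, had 20.4 to 37.2 TPM in immature B cells and 70.4 and 95.9 TPM in pre-B cells. None of the 7 calls held when the third immature B experiment was required; for Isg15 the log2 value was then -0.22 (adjusted p 0.33). Of 8 heat shock genes tested, 1 was higher and 2 lower, near the shares of 13.9% and 22.3% over all genes. The chaperone Hspa8 had 103 to 153 TPM in immature B cells and 279 and 369 TPM in pre-B cells.

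Markers of other bone marrow cells were present at both stages. Of 12 pro-B cell markers, 6 were lower and none higher, beside 22.3% and 13.9% of all genes. Their summed level was 260 to 366 TPM in immature B cells and 1243 to 1269 TPM in pre-B cells. Sox4, given above, and Bst1, at 18.8 to 26.5 TPM in immature B cells and 107 and 127 TPM in pre-B cells, were among the 6. The progenitor receptors Kit, at 1.05 to 1.59 TPM in immature B cells and 1.73 and 1.99 TPM in pre-B cells, and Flt3, at 0.770 to 1.68 TPM in immature B cells and 1.32 and 1.30 TPM in pre-B cells, were not called. The part of pro-B cells in the lower genes was not tested. Of 16 myeloid markers tested, 1 was higher and 2 lower, beside 13.9% and 22.3% of all genes. After scaling by the median of ratios none was lower. Their summed level was 1767 to 5364 TPM in immature B cells and 2507 to 3660 TPM in pre-B cells, so the ranges overlapped. Of 12 erythroid and platelet markers, 8 were tested and 2 were lower, near the share of 22.3% over all genes. Neither was lower after scaling by the median of ratios. The 9 markers with a row summed to 397 to 712 TPM in immature B cells and 843 to 1001 TPM in pre-B cells. Hbb-b1 was at 0 in all 7 libraries, and Hba-a1, Hba-a2 and Hbb-b2 have no shared row. These globin rows therefore do not show whether erythroid RNA was present. The 17 T and NK cell markers summed to 28.8 to 42.8 TPM in immature B cells and 32.4 to 36.1 TPM in pre-B cells. Of these, 9 were tested and Cd5 was the 1 called, while 8 did not pass the filter. Of 4 plasmacytoid dendritic cell markers tested, 1 was higher and 1 lower, beside 13.9% and 22.3% of all genes. All 6 markers of that list summed to 272 to 358 TPM in immature B cells and 241 to 248 TPM in pre-B cells. The part of these cell types in the results was not tested. Of 8 plasma cell markers, 2 were higher and 4 lower, beside 13.9% and 22.3% of all genes. Their sums were 876 to 1285 TPM in immature B cells and 1529 to 1584 TPM in pre-B cells. The higher members were Jchain (Igj), given below, and Xbp1, a factor of the secretory programme, at 151 to 189 TPM in immature B cells and 96.6 and 96.4 TPM in pre-B cells. Sdc1, the CD138 antigen of plasma cells, had 22.1 to 38.0 TPM in immature B cells and 137 and 124 TPM in pre-B cells. Prdm1, their defining factor, had 0.727 to 1.31 TPM in immature B cells and 2.32 and 1.80 TPM in pre-B cells. It was lower with log2 changes of -0.57 and -0.80, a call lost without replicate 1 of the first experiment (adjusted p 0.21), without either pre-B library (adjusted p 0.078 to 0.23) and without replicate 2 or 3 of the second experiment (adjusted p 0.054 and 0.056). Among 75 cytosolic ribosomal protein genes tested, 2 were higher and 9 lower, beside 13.9% and 22.3% of all genes, with medians of 0.10 and -0.30.

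Ranked by the smaller of the changes with the experiments, the 12 leading higher genes outside the immunoglobulin rows held several named above, Ccnd2, Cxcr5, Fcer2a, H2-DMb2, Ifi30 and Cd83. AI848285 led the ranking at 89.6 and 107 TPM in the first immature B experiment and 78.0, 122 and 99.0 TPM in the second, against 1.397 and 1.08 TPM in pre-B cells (log2 5.47 ± 0.19 and 5.47 ± 0.17). Jchain (listed as Igj), the chain that links IgM and IgA into polymers, had 214 and 212 TPM in the first immature B experiment and 61.5, 64.3 and 31.4 TPM in the second, against 0.938 and 0.405 TPM in pre-B cells. Both experiments were far above pre-B cells, and the first was higher than the second, with a log2 difference of -2.07 for the second minus the first (adjusted p 0.001). Wnt10a, a secreted WNT ligand, had 129.8 and 111 TPM in the first immature B experiment and 122, 123 and 119 TPM in the second, against 4.41 and 4.34 TPM in pre-B cells. Its 5 immature B libraries lay close together, and the log2 changes were 4.495 ± 0.09 and 4.51 ± 0.08 (largest adjusted p 7.9e-08). Cd200, the ligand of an inhibitory receptor on myeloid cells, had 38.7 to 41.1 TPM in immature B cells and 1.31 and 1.55 TPM in pre-B cells. Pxdc1 had 27.7 to 36.2 TPM in immature B cells and 0.644 and 0.519 TPM in pre-B cells and Gm1821 had 134 to 196 TPM in immature B cells and 8.73 and 7.78 TPM in pre-B cells. Each of the 12 was lower in both pre-B libraries than in any immature B library.

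The 12 leading lower genes began with Rag1 and held Rag2 and H2-Ea-ps. Epha2, an ephrin receptor kinase, had 7.11 and 5.46 TPM in the first immature B experiment and 7.26, 4.25 and 6.34 TPM in the second, against 168 and 146 TPM in pre-B cells (log2 -4.44 ± 0.21 and -4.53 ± 0.19). Reln, which encodes the secreted protein reelin, known from neuronal migration, had 9.03 and 9.34 TPM in the first immature B experiment and 15.7, 8.05 and 6.01 TPM in the second, against 114 and 97.4 TPM in pre-B cells. Smtnl2, a smoothelin-like protein, had 4.00 to 7.92 TPM in immature B cells and 81.9 and 78.7 TPM in pre-B cells, against 253 and 245 TPM in pro-B cells. All immature B libraries were below both pre-B libraries in these genes. Ptgr1, a prostaglandin reductase, had 13.5 to 20.8 TPM in immature B cells and 194 and 206 TPM in pre-B cells. Nav2 had 1.398 to 2.44 TPM in immature B cells and 33.7 and 26.2 TPM in pre-B cells and Lrrc10b had 0.234 to 1.35 TPM in immature B cells and 29.1 and 19.5 TPM in pre-B cells. Genes known for other tissues were also in the ranking. Prm1, the protamine of sperm chromatin, had 4.30 and 1.99 TPM in the first immature B experiment and 3.36, 0.973 and 3.35 TPM in the second, against 57.0 and 43.1 TPM in pre-B cells, and Lalba, the milk protein alpha-lactalbumin, had 0 to 1.36 TPM in immature B cells and 17.6 and 14.3 TPM in pre-B cells. Eps8l1, an adaptor of actin signalling, had 0.124 and 0.158 TPM in the first immature B experiment and 0.296, 0.501 and 0.372 TPM in the second, against 16.4 and 27.5 TPM in pre-B cells. In the third immature B experiment Eps8l1 was at 8.95 and 13.4 TPM, nearer to the pre-B level than to the other immature B libraries.

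**Figure D5:**
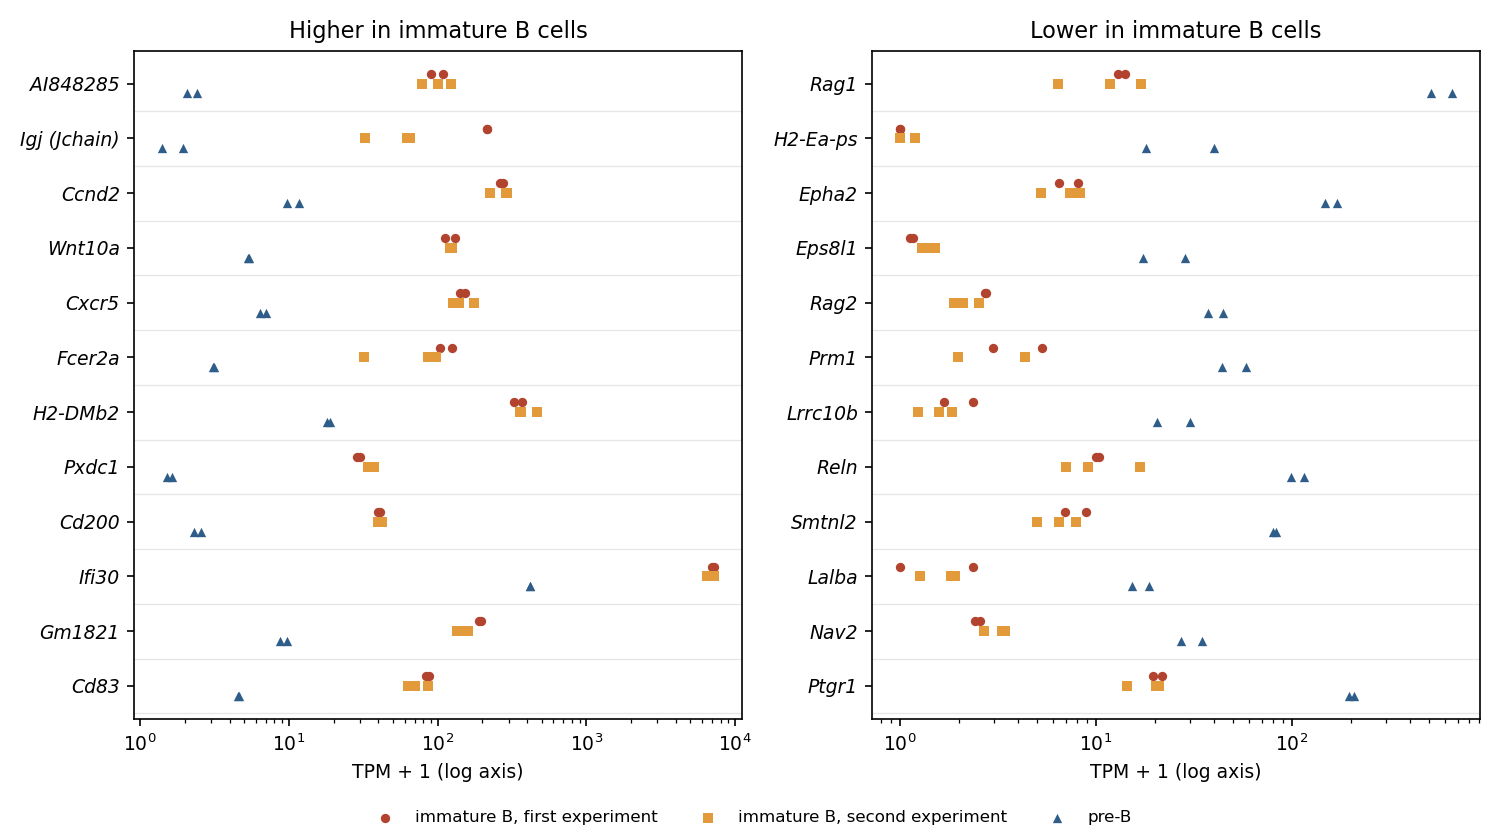
TPM + 1 on a log axis for the 12 leading higher genes (left) and the 12 leading lower genes (right), 1 point per library: red circles for the first immature B experiment, orange squares for the second and blue triangles for pre-B cells. In every row the immature B points lie on 1 side of the pre-B points; Rag1 shows 5.41 to 16.1 TPM in immature B cells and 514 and 655 TPM in pre-B cells.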

How the data were processed

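Poly(A) RNA of 7 libraries was compared, 5 from immature B and 2 from pre-B cells. The authors deposited TPM (transcript abundance scaled to a fixed total) per gene, per the file headers, and no read counts, so depth is unknown. The third immature B experiment's columns, whose header gives no unit, are signal values deposited by the authors under a TPM file name; they sum to the same total and were read as TPM. The submitters' processing notes name featureCounts 1.5.0, Bowtie2 2.1.0 and 2.2.9, DESeq2 2.1.14.1, Trim Galore 0.4.2 and the builds mm9 and mm10, with no roles; the sources used here do not say which made these tables.

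The first experiment's tables hold other rows than the rest, so the 24643 shared rows were used, which hold 96.9% to 98.3% of each library's TPM. Groups followed the labels. limma 3.58.1 in R 4.3.3 was fitted to log2(TPM + 1), both immature B experiments and pre-B cells forming 3 groups; genes needed 1 TPM in 2 libraries, and the prior variance followed a trend. A call needed an adjusted p under 0.05 with both experiments and the same sign; the smaller change ranked genes. On simulated data the procedure recovered 91 of 100 genes changed by 1 on the log2 scale and 98 of 100 changed by 2, with 0 calls among unchanged genes. The simulation gave both immature B experiments the same mean, while in the data 27.7% of genes were higher and 5.50% lower in the second. It therefore cannot show how often a difference between experiments is called as a difference of stage.

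Named genes were the 12 leading in each direction at a mean of 10 TPM or more outside immunoglobulin rows, members that carry or go against a list, and Wapl. Members and the 30 lists were chosen with earlier results of these data known. Alternatives were other pseudocounts, filters, scalings, priors and groupings, and leaving out each library. Promoters came from RefSeq (GRCm38.p6). Some genes of the lists are not reported here by name.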

Additional observations from a re-analysis of the deposited data

Results flagged for a closer look

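Of the 24 ranked genes and Wapl, 25 results in all, 3 differed between the immature B experiments when that difference itself was tested. All values are the second experiment minus the first on the log2 scale, from limma with adjustment over all genes tested, where 27.7% of genes were higher and 5.50% lower in the second. Igj (Jchain) differed by -2.07 (adjusted p 0.0010), with 31.4 to 64.3 TPM in the second experiment and 212 and 214 TPM in the first. Gm1821 differed by -0.37 (adjusted p 0.015). Wapl differed by -3.10 (adjusted p 0.00032). Igj and Gm1821 were higher than in pre-B cells in every immature B library of both experiments.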

How the results depend on the processing

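Requiring a change of 1 or more on the log2 scale lowered the counts to 558 higher and 736 lower genes with both experiments, 1904 with the first experiment, 1688 with the second and 431 between the immature B experiments. Leaving out each library in turn gave 1353 to 1662 higher genes, 1971 to 2950 lower genes, 5267 to 7075 genes with the first experiment, 4734 to 6241 with the second, and 2226 to 4030 between the immature B experiments, of which 2226 and 2395 came without replicate 1 and without replicate 2 of the first. Leaving out a library of the first experiment or of pre-B cells leaves that arm with 1, which is assumed to vary like the other groups. Under the other scalings, pseudocounts, filters and priors the 5 counts stayed within 1.5 times. Of 189 named genes, 3 turned sign after quantile normalization, Cd79a (-0.073), Cd79b (-0.010) and Cd24a (-0.018), and 14 lost their call; after scaling by the median of ratios 15 lost it and none turned. With the third immature B experiment required, Oas3 (0.13) and Cox6a2 (-0.73) turned and 25 lost their call. The causes were not tested. No paired analysis was possible because the stages share no replicate numbers in the labels. TPM carry no depth, so the precision of low values is unknown, and the sort gates are not given. The alternatives that leave out genes differing between the immature B experiments, or that require separated libraries, were chosen after seeing the data.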

Other observations

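A pair of V gene rows stood out after their values were seen, Ighv11-2 and Igkv14-126, which are known together from B-1 cell antibodies to phosphatidylcholine. Ighv11-2 had 132 and 408 TPM in the first immature B experiment and 53.8, 95.9 and 73.7 TPM in the second, against 4.03 and 5.51 TPM in pre-B cells. Igkv14-126 had 724 and 2065 TPM in the first immature B experiment and 358, 453 and 355 TPM in the second, against 32.0 and 28.2 TPM in pre-B cells. Both rows were higher in all 5 immature B libraries than in both pre-B libraries, and the 2 libraries of the first experiment differed from each other by more than those of the second did. Ighv12-3, another V gene of such antibodies, was not called.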
